A study of Mus musculus with 2 samples.

Results

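The genes described here encode the contractile apparatus of heart muscle: 39 genes of the sarcomere and Z-disc, of 21896 protein-coding genes and 49980 genes of all kinds in the RefSeq table. They were taken by name, by a rule that uses no peak but was set with earlier results of these data known, and all 39 were found in the table. The question was where the vitamin D receptor (VDR) was recovered at them in fetal heart. DNA bound by VDR had been immunoprecipitated from chromatin of mouse left ventricle at stage E16.5 and sequenced (ChIP-seq). One library came from embryos of mothers on a normal diet and 1 from embryos of mothers on a vitamin D deficient diet. Below, the lists of peaks from these libraries are called normal and deficient. The labels used here give no strain, maternal age, number of pooled hearts or length of the diet. With 1 library per diet there is no replicate check, no p-value was computed, and every difference below is between 2 libraries. Peak lists hold no expression values, so the tissue could not be checked against its marker genes.

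VDR is a nuclear receptor that pairs with a retinoid X receptor and, with its hormone bound, attaches to DNA at repeats of a short half-site. The sarcomere is the repeating unit of the myofibril, in which thick filaments of myosin pull on thin filaments of actin. Thin filaments are anchored at the Z-disc and thick filaments are tied together at the M-band, while titin spans from one to the other. In the fetal mouse ventricle the myosin, troponin and actin isoforms are still being exchanged for those of the adult.

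A peak is a stretch of DNA that the authors' peak caller found enriched in the immunoprecipitate, and its summit is the highest point. A peak was assigned to a gene when its summit lay inside the gene span or within 10 kb of either end. There were 23456 usable peaks in the normal and 37661 in the deficient list. Total read counts were not used here, but depth shows in the background recovered from the deposited values, which was 2.65 fragments per position for the normal and 5.38 for the deficient library. The median summit pileup, the number of fragments over a summit, was 16 and 22. Among peaks at the genome-wide background, the smallest pileup was 4.15 times the background for the normal and 2.97 times for the deficient list. The deficient list thus holds peaks of lower enrichment, and depth and diet cannot be told apart in a difference between the lists.

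VDR peaks were found at most sarcomere genes, about as often as at protein-coding genes at large. The normal list had at least 1 peak at 21 of the 39 (53.8%, beside 49.8% of protein-coding genes). The deficient list had one at 26 (66.7%, beside 59.4%). With both lists held to pileups of at least 4.15 times the background, the order turned, to 19 and 15 members beside 47.7% and 29.3% of protein-coding genes. Both lists had a peak at 18 genes (46.2%, beside 40.6% of protein-coding genes) and neither at 10 (25.6%, beside 31.4%). The normal list alone had one at Tnnc1, Mypn and Smyd1 (3 genes, 7.69%, beside 9.16%). The deficient list alone had one at Myl3, Myl4, Myl7, Acta1, Tpm1, Des, Xirp2 and Pdlim5 (8 genes, 20.5%, beside 18.8%). Long genes have more room for peaks, so genes were also split by span. In the normal list a peak was found at 7 of 17 members under 20 kb (41.2%, beside 42.7% of protein-coding genes of that span), 8 of 12 from 20 to 60 kb (66.7%, beside 51.8%) and 6 of 10 over 60 kb (60%, beside 67.3%). The deficient list had one at 10 of 17 (58.8%, beside 51.7%), 9 of 12 (75.0%, beside 62.3%) and 7 of 10 (70.0%, beside 77.5%). At the rates of these classes, 20.2 and 24.0 of the 39 genes would have a peak.

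**Figure D1:**
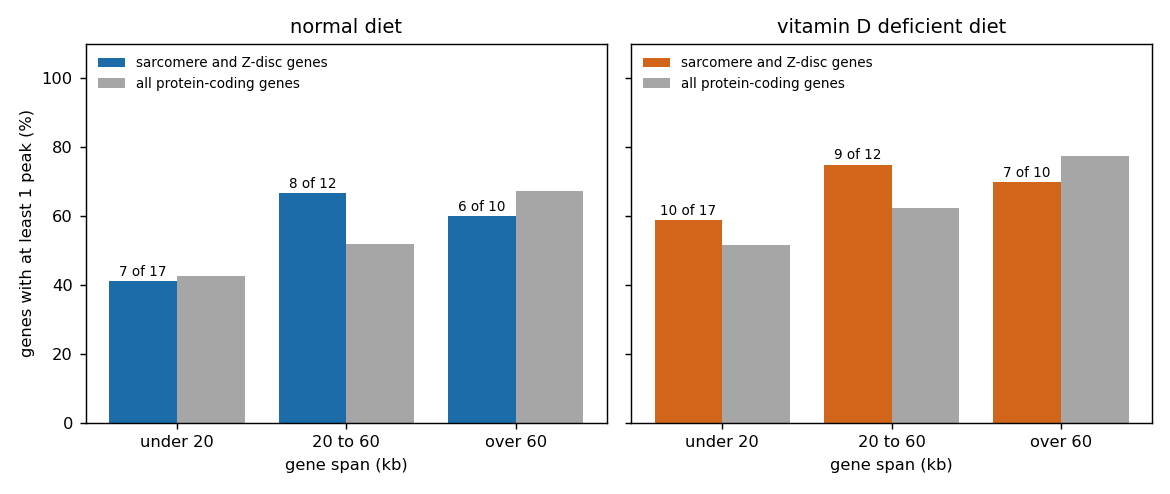
Share of genes with at least 1 VDR peak in the gene span or within 10 kb (vertical axis, percent) by gene span (horizontal axis, kb), for the sarcomere and Z-disc genes (coloured bars, with the number of genes) and all protein-coding genes (grey bars), with 1 library per diet. In both lists the members of 20 to 60 kb stand above the grey bar (66.7% beside 51.8%, and 75.0% beside 62.3%) and the members over 60 kb below it (60% beside 67.3%, and 70.0% beside 77.5%).

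The peaks were unevenly spread over the members. The normal list had 49 separate peaks at them and the deficient list 59. The neighbours Myh6 and Myh7, 2666 bp apart, share some of them, which gives 50 and 61 assignments of a peak to a gene. Members with 3 or more peaks numbered 10 in the normal list (25.6%, beside 12.2% of protein-coding genes) and 9 in the deficient list (23.1%, beside 21.4%). The most were 6 normal peaks at Myh6 and 6 deficient peaks at Flnc. The median was 1 peak per gene in both lists, where all protein-coding genes had medians of 0 and 1.

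**Figure D2:**
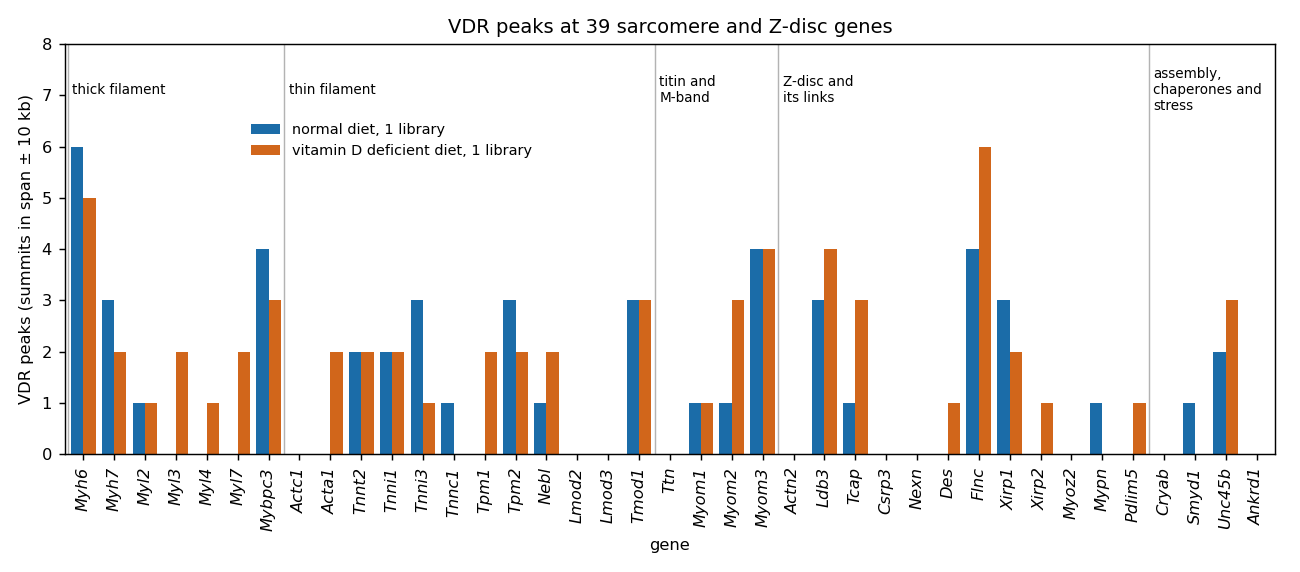
Number of VDR peaks with a summit in the gene span or within 10 kb (vertical axis) for each of the 39 genes, grouped by role, in the normal (blue) and deficient (orange) library. Myh6 has 6 and 5, Flnc 4 and 6, and 10 genes, Ttn, Actn2 and Actc1 among them, have no bar in either library.

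Of the 7 thick filament genes, 4 had a normal peak (57.1%, beside 49.8% of protein-coding genes): Myh6, Myh7, Myl2 and Mybpc3. All 7 had a deficient peak (beside 59.4%), which fell to 6 with lists of equal length, where Myl4 lost its peak, and to 4 at pileups of at least 4.15 times the background. Myh6, the fast alpha-myosin heavy chain that becomes the main one in the adult mouse ventricle, had 6 normal and 5 deficient peaks. Among protein-coding genes of 20 to 60 kb, 1.43% had as many normal and 8.37% as many deficient peaks. Of the normal summits, 5 lay inside the gene, between 2591 and 11518 bp from its 3' end. Myh7, the slow beta-myosin of the fetal ventricle, had 3 normal and 2 deficient peaks, and both deficient ones also count for Myh6.

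At this myosin pair 3 sites were called in both libraries, and the normal values are given first here and for all later pairs. The first lay inside Myh6 on chromosome 14, from 54944383 to 54944567 and from 54944336 to 54944542, with summits 18 and 24 fragments high. The second, also inside Myh6, ran from 54950296 to 54950635 and from 54950344 to 54950589, with 18 and 26 fragments. The third lay inside Myh7, 2139 bp from its 3' end and 4806 bp from Myh6, from 54972544 to 54972997 and from 54972689 to 54972975, with 17 and 22 fragments. It lies within 10 kb of Myh6 and so counts for both genes.

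Upstream of Myh7, 1 normal peak lay 1645 bp before the start, with 20 fragments over a background of 2.99, with no deficient summit closer than 23386 bp. A normal peak in the middle of the gene also had 20 fragments, over a background of 2.66, and its -log10 q, the authors' measure of confidence adjusted for multiple testing, was 7.80. At Myh6 a deficient peak lay inside the span 286 bp from its 5' end and 1124 bp before the listed start site, with 19 fragments over 5.82. That height is below the median of its list.

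Mybpc3, cardiac myosin-binding protein C, had 4 normal and 3 deficient peaks, with 2 overlapping pairs. One pair lay within the gene, on chromosome 2 from 91124412 to 91124612 and from 91124295 to 91124618, with 17 and 24 fragments. The other lay 2949 bp beyond the 3' end, inside the neighbouring gene Madd, from 91139326 to 91139526 and from 91139258 to 91139546, with 20 and 23 fragments. For the pair in Madd, the ratio of height to background was 6.29 (95% Poisson interval 3.84 to 9.71) in the normal and 2.37 (1.5 to 3.56) in the deficient library. The intervals part narrowly, at 1 of the 10 pairs compared, and cover the counting error of the pileup alone. The deficient background there was 9.70, or 1.80 times the genome-wide value. A further deficient peak, of 19 fragments, lay 689 bp past the 3' end of Mybpc3.

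Of the 4 light chains, 3 had peaks in the deficient list alone, beside 18.8% of protein-coding genes. The light chains were not a role group of their own, so no excess is read from this count, and Myl4 lost its peak with lists of equal length. Myl3, Myl4 and Myl7 had no normal peak within 10 kb, with the nearest at 11620, 12130 and 57199 bp, and 2, 1 and 2 deficient peaks. Myl3 encodes the ventricular essential light chain, Myl4 the atrial one and Myl7 the atrial regulatory one. The peak 4812 bp before Myl3, from 110758735 to 110758918 on chromosome 9, had 30 fragments over a background of 5.66 and a -log10 q of 8.43, the second highest of the deficient peaks at these genes. The peak of Myl4 was low, with 18 fragments over 5.38 and rank 33842 of 37661. At Myl7 a peak of 26 fragments lay inside this short gene, 854 bp after its start. Myl2, the ventricular regulatory light chain, had 1 peak in each list, 9442 and 1987 bp past its 3' end and both inside Ccdc63, without overlap.

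Of the thin filament genes, 7 of 12 had a normal (58.3%, beside 49.8% of protein-coding genes) and 8 of 12 a deficient peak (66.7%, beside 59.4%), shares near the background. At pileups of at least 4.15 times the background it was 7 and 5. Tpm2, beta-tropomyosin, was the 1 member with a summit within 1 kb of an end in both lists. Its normal peak, on chromosome 4 from 43523723 to 43523997, had its summit 316 bp before the start site and 17 fragments over 2.65. The deficient peak nearby, from 43523107 to 43523294, had its summit 406 bp after the start and 22 fragments over 5.82. The peaks flank the start and do not overlap, their summits being 722 bp apart. A second deficient peak lay 979 bp from the 3' end, inside Car9, with 29 fragments.

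Peaks reached 2 member promoters, of the 44 listed for 33 member genes, 1 in each list. They are shown because here the peak and the start site can be read together. Among all 32851 listed promoters, 4.58% were reached by a normal peak and 4.58% by a deficient peak. The sequences are the 250 bases before the start, on the transcribed strand (minus for both), from RefSeq, build GRCm38.p6, and capitals mark the bases the peak covers. The Tpm2 promoter (chr4:43523555-43523804) was covered over 82 bases by the normal peak. The most upstream of the listed Nebl promoters (chr2:17731135-17731384) was covered over 20 bases by a deficient peak whose summit lay 274 bp before the start. The other listed Nebl promoters were not reached by a peak.
Tpm2: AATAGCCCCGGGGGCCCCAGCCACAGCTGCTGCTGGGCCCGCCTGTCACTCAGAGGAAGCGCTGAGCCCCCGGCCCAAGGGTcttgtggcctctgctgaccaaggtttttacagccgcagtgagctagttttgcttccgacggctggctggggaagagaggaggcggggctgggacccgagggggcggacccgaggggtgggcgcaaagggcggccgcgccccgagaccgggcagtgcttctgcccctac
Nebl: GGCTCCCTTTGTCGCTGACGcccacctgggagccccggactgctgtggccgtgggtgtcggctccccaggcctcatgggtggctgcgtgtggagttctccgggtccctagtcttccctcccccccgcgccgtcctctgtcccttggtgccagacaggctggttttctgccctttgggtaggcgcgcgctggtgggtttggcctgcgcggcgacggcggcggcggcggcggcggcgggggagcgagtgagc
Both are rich in G and C, at 69.6% and 72.4%. Neither window holds the VDR half-sites AGGTCA or GGTTCA on either strand.

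Nebl encodes nebulette, which links actin to the cardiac Z-disc, and is the longest member at 392 kb. It had 1 normal and 2 deficient peaks, none shared. The deficient peak at the most upstream of its listed promoters had 27 fragments over 5.38 and a -log10 q of 6.97. By the peak density of the 1 Mb on either side, a window of this length would hold 2.68 and 5.15 peaks. Of the 363 protein-coding genes at least as long, the medians were 3 and 4 peaks.

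Troponin genes showed no common pattern. Tnnt2, cardiac troponin T, had 2 peaks in each list, none overlapping. The deficient peak 2072 bp before its start had 24 fragments over 5.82, and the normal peak inside the gene had 18 over 2.65. Tnni3, the adult cardiac troponin I, had 3 normal peaks and 1 deficient peak. The normal peak inside it, 1906 bp after the start, had 20 fragments over 2.65 and a -log10 q of 7.80. Tnni1, the fetal form of troponin I, had 2 in each list, and 1 pair overlapped in its 3' flank, inside Lad1, from 135818715 to 135818895 and from 135818753 to 135818969 on chromosome 1, with 18 and 22 fragments. Tnnc1, troponin C of heart and slow muscle, had 1 normal peak 693 bp past its end, with 15 fragments, and its nearest deficient summit at 21500 bp.

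Actc1, the cardiac actin, had no peak in either list, the nearest being 122399 and 79768 bp away. Acta1, the skeletal actin also made in fetal heart, had 2 deficient peaks and its nearest normal summit 31920 bp away. One lay 656 bp before its start, with 24 fragments over a raised background of 8.73. The other lay 9014 bp before it, inside Nup133 (from 123903713 to 123903931 on chromosome 8), with 28 fragments over 5.38 and a -log10 q of 7.59, the third highest of the deficient peaks at the members. Tpm1, the main tropomyosin of the heart, had 2 deficient peaks, 1 of them 416 bp before its listed start with 25 fragments over 6.79, and its nearest normal summit at 47495 bp. Tmod1, which caps the pointed end of the thin filament, had 3 peaks in each list, all inside the gene and none shared. One normal summit lay 408 bp after its start, with 18 fragments over 4.28.

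Ttn, the second longest member, had no peak. It encodes titin, the giant elastic protein of the sarcomere, and spans 279 kb on chromosome 2. The nearest normal summit was 452987 bp and the nearest deficient summit 15544 bp away. Of the 626 protein-coding genes at least as long, 27 (4.31%) had no peak in either list, and their medians were 2 and 3 peaks. The region around Ttn was itself poor in peaks, with 2.50 normal and 9 deficient peaks per Mb on its flanks, so a window of this length would hold 0.746 and 2.69.

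The M-band genes Myom1, Myom2 and Myom3 had peaks in both lists. Myom1, myomesin, had 1 in each list, 20498 bp apart. Myom2 had 1 normal and 3 deficient peaks. The pair 8826 bp from its end, on chromosome 8 from 15142073 to 15142407 and from 15142063 to 15142352, included the deficient peak of highest pileup and -log10 q at any member, with 45 fragments over 10.7 and a -log10 q of 10.2. Its fold enrichment of 3.94 was below that of the Myl3 peak, at 4.66. The normal peak there had 23 fragments over 6.42. Local background at this site was high, at 2.42 and 1.98 times that of the genome, more than at any other peak of the members. Myom3 had 4 peaks in each list. The pair that overlapped lay 8072 bp from the gene, inside Il22ra1, from 135750586 to 135750841 and from 135750582 to 135750815 on chromosome 4, with 18 and 19 fragments. A normal peak inside Myom3, from 135765450 to 135765739, had 20 fragments over 2.65 and a -log10 q of 7.80, and another lay 92 bp inside the low-coordinate end with 14.

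Of the genes of the Z-disc and its links, 5 of 12 had a normal (41.7%, beside 49.8% of protein-coding genes) and 7 of 12 a deficient peak (58.3%, beside 59.4%), again near the background. The deficient count was 5 with lists of equal length and 3 at pileups of at least 4.15 times the background. Flnc, filamin C, which crosslinks actin at the Z-disc, had 4 normal and 6 deficient peaks in a gene of 28.7 kb, none overlapping. Among protein-coding genes of 20 to 60 kb, 5.50% had as many normal and 5.02% as many deficient peaks. Its normal peak from 29450587 to 29450811 on chromosome 6 had 21 fragments over 2.65 and a -log10 q of 8.67, and the nearest deficient summit lay 6567 bp away. Of its 6 deficient summits, 1 lay 2305 bp before the 5' end of the span, 4 lay 533, 7429, 9582 and 10968 bp after it, and 1 lay 1069 bp past the 3' end. The normal summits lay 3036, 17535, 25323 and 26633 bp after the 5' end, so 3 of the 4 were in the 3' part of the gene.

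Xirp1, an actin-binding repeat protein of the intercalated disc, held the normal peak of highest confidence at any member. Its place was within the gene, on chromosome 9 from 120017120 to 120017720, with 22 fragments over 2.89, a -log10 q of 8.85 and rank 821 in the list. It was overlapped by 2 deficient peaks, from 120017273 to 120017480 and from 120017713 to 120017936, with 22 fragments each over 5.88 and 6.79. The latter shared 8 bp with it. Ldb3, the Z-disc protein also called ZASP or Cypher, had 3 normal and 4 deficient peaks. All 4 deficient summits lay inside the gene and none was shared, the closest pair being 1921 bp apart. Tcap, telethonin, which caps titin at the Z-disc, had 1 and 3 peaks, all of them in the flanks and inside the neighbours Stard3 and Pgap3.

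Des, the intermediate filament protein desmin, Xirp2 and Pdlim5 had 1 deficient peak each and no normal peak. Pdlim5, a PDZ and LIM domain protein that binds alpha-actinin, had its peak inside the gene, with 27 fragments over 5.82. Mypn, myopalladin, had 1 normal peak deep inside the gene with 20 fragments over 3.85. Of the assembly genes, Unc45b, a myosin chaperone, had 2 normal and 3 deficient peaks. Smyd1, a muscle methyltransferase needed for myofibril assembly, had 1 normal peak of 15 fragments and its nearest deficient summit 107210 bp away.

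**Figure D3:**
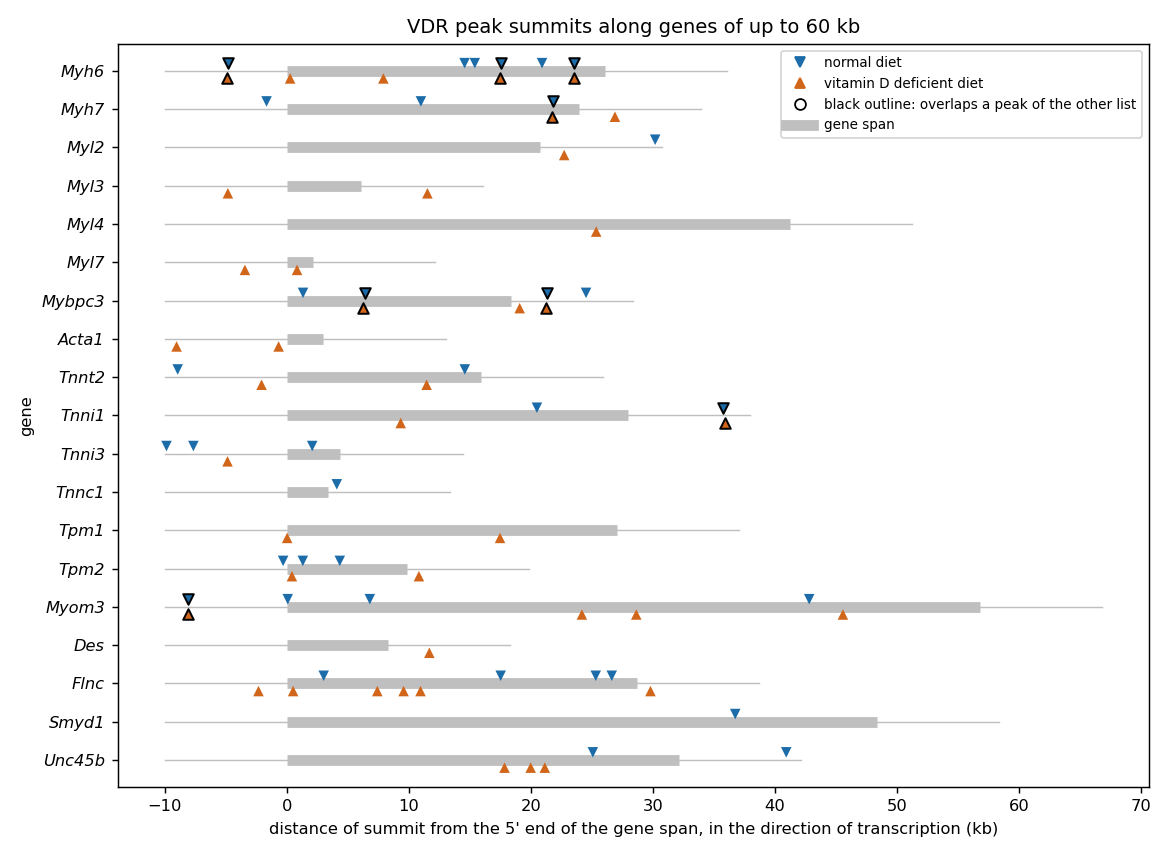
Summits of VDR peaks along the members of up to 60 kb with a listed strand and at least 1 peak, by distance from the 5' end of the gene span in the direction of transcription (horizontal axis, kb); thick grey lines are gene spans, thin lines the 10 kb flanks, blue and orange triangles the normal and deficient library, and black outlines mark peaks that overlap one of the other list. Outlined pairs stand at Myh6, Myh7, Mybpc3, Tnni1 and Myom3, while the 4 blue and 6 orange summits of Flnc are all without an outline.

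No peak of either list was found at 10 members: Actc1, Lmod2, Lmod3, Ttn, Actn2, Csrp3, Nexn, Myoz2, Cryab and Ankrd1. They include alpha-actinin (Actn2), the main crosslinker of the Z-disc, the stress-responsive Ankrd1 and the small heat shock protein Cryab. The distance to the nearest summit ran from 10383 to 452987 bp in the normal and from 10358 to 261713 bp in the deficient list. Nexn and Actn2 lay just outside the limit, at 10383 and 10358 bp and at 11503 and 11340 bp, while the summit 9840 bp from Tnni3 lay just inside it. At 4 of the 10 genes, Lmod3, Actn2, Nexn and Ankrd1, the nearest peaks of the lists overlapped, so the closest site was called in both libraries. Over the whole lists, 34% of normal and 21.3% of deficient peaks overlapped one of the other list. The share was not computed for other genes without a peak, so no excess can be read from these 4.

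Near gene ends the counts were close to the background. A summit within 1 kb of either end was found at 5 members in the normal list (12.8%, beside 18.5% of protein-coding genes): Tnnc1, Tpm2, Tmod1, Myom1 and Myom3. In the deficient list it was found at 7 (17.9%, beside 21.9%): Myh6, Myl7, Mybpc3, Acta1, Tpm1, Tpm2 and Flnc. At the rates of the span classes 7.28 and 8.56 members would have a summit within 1 kb. Within 3 kb, 12 and 10 members had one. The share of protein-coding genes within 3 kb is not given, and the class rates for 1 kb do not apply to these counts. Pileups at the summits within 1 kb ran from 14 to 18 and from 19 to 29 fragments, and none of these peaks overlapped one of the other list. Beside the Tpm2 peak at its start, the normal peaks ran from 31212328 to 31212568 on chromosome 14 (Tnnc1), from 46039487 to 46039786 and from 135758834 to 135759014 on chromosome 4 (Tmod1 and Myom3), and from 71002388 to 71002580 on chromosome 17 (Myom1). The deficient peaks on chromosomes 14, 11, 2 and 8 ran from 54967644 to 54967832 (Myh6), from 5897795 to 5898010 (Myl7), from 91137064 to 91137230 (Mybpc3) and from 123895376 to 123895537 (Acta1). Those on chromosomes 9, 4 and 6 ran from 67049553 to 67049732 (Tpm1), from 43512714 to 43512877 (the Tpm2 peak in Car9) and from 29433542 to 29433745 (Flnc). The Myom1 summit lay 887 bp from the low-coordinate end of the span but 17112 bp before the listed start site, and inside Myl12a. Of the 49 normal summits, 31 (63.3%) lay inside a member and of the 59 deficient summits 37 (62.7%). A further 11 in each list lay in a flank and inside another protein-coding gene that is no member. The table used here gives spans and no exons, so exon and intron were not told apart.

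Overlapping pairs of peaks were found at 7 members (17.9%, beside 22.5% of protein-coding genes): Myh6, Myh7, Mybpc3, Tnni1, Myom2, Myom3 and Xirp1. Of the normal peaks at the members, 9 of 49 (18.4%, exact 95% interval 8.76 to 32.0%) overlapped a deficient peak, beside 34% of the whole list and 30.5% of its peaks at protein-coding genes. The interval for the members lies below the share of the whole list and takes in that of protein-coding genes. For the deficient peaks it was 10 of 59 (16.9%, 8.44 to 29.0%), beside 21.3% and 19.4%, and here the interval takes in both. A further 2 normal and 1 deficient peaks had a summit of the other list within 1 kb without overlap. These intervals cover counting error alone.

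The 10 pairs had summits 27 to 253 bp apart, with a median of 93 bp. The ratio of pileup to local background was higher in the normal library in 9 of the 10, Myom2 being the exception at 3.58 (2.27 to 5.38) against 4.21 (3.07 to 5.63). The intervals overlapped in 9 of the 10 and parted at the Mybpc3 site in Madd. Median fold enrichment over the whole lists also differed in this direction, at 4.38 and 3.45.

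**Figure D4:**
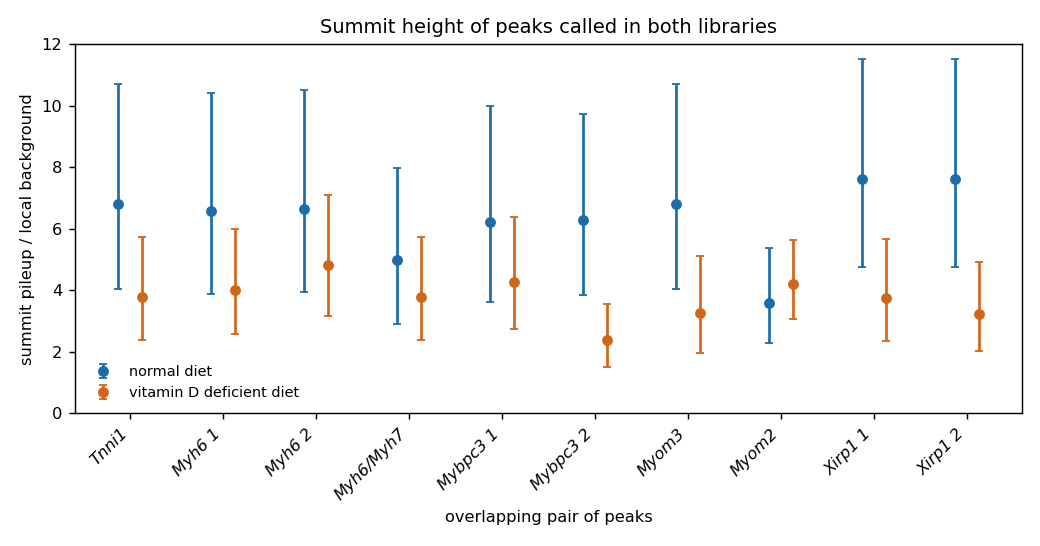
Ratio of summit pileup to local background (vertical axis) for the 10 overlapping pairs of peaks at the members (horizontal axis, named by gene), in the normal (blue) and deficient (orange) library, with bars for the 95% Poisson interval of the pileup. The blue point is the higher in 9 pairs, and the bars part at the second Mybpc3 pair, with 6.29 and 2.37.

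In pileup and -log10 q the members' deficient peaks resembled their list, while the normal ones stood somewhat higher than theirs. The median pileup was 18 (14 to 23) in the normal and 22 (17 to 45) in the deficient library, beside list medians of 16 and 22. The authors' median -log10 q was 4.87, beside 4.49 for the list, and 3.95, beside 3.95. At a -log10 q of 5 or more stood 23 of the 49 normal peaks (46.9%, beside 35% of the list) and 14 of the 59 deficient peaks (23.7%, beside 24.3%). The best ranks were 821 of 23456 and 455 of 37661. The background equalled the genome-wide value at 36.7% and 40.7% of the members' peaks, beside 52.6% and 55.7% of the lists.

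Members with a peak lay in regions richer in peaks. In the 1 Mb on either side of the window, the 21 members with a normal peak had a median of 17.0 peaks per Mb and the 18 without one 6.75. For the deficient list it was 28.5 for the 26 with and 9.50 for the 13 without. All protein-coding genes showed the same order, at 15.5 and 8 and at 24.5 and 11.5. Summed over the members, the flanks would give 30.2 normal and 51.5 deficient peaks, where 50 and 61 were assigned. The ratios were 1.66 and 1.18, beside 1.24 and 1.18 over all protein-coding genes. Per length of window, the members under 20 kb held 34.9 and 41.1 peaks per Mb (all protein-coding genes of that span 23.0 and 34.1), those of 20 to 60 kb 35.8 and 39.1 (18.0 and 28.3), and those over 60 kb 6.22 and 9.33 (8.53 and 13.8). The members up to 60 kb were thus denser than protein-coding genes of their span in both lists as deposited. This rests on few peaks, 17 and 20 under 20 kb and 22 and 24 from 20 to 60 kb. Density is not given for lists of equal length. Over all members, the mean counts of the span classes would give 42.7 normal and 66.4 deficient assignments, where 50 and 61 were made. Nebl and Ttn, the longest members, are poor in peaks and weigh on the density of the long members. Without them, a choice made after seeing the data, the other 8 held 9 normal and 13 deficient peaks in 0.896 Mb. This is 14.5 deficient peaks per Mb. Leaving out members poor in peaks raises the density by construction. The long protein-coding genes kept their sparse genes, so no comparison with them is drawn from this value.

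**Figure D5:**
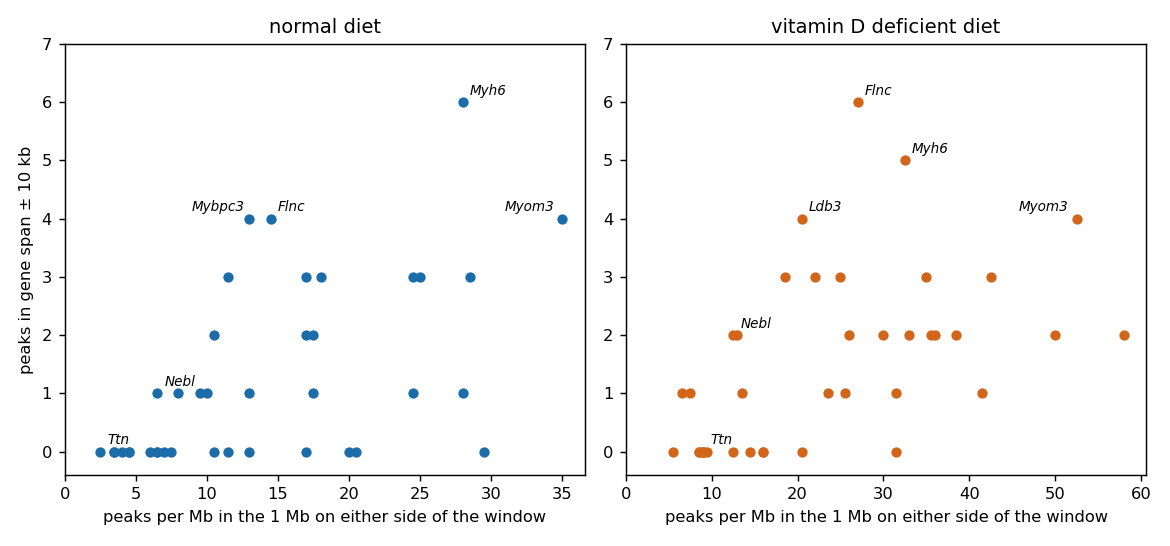
Number of VDR peaks at each member (vertical axis, summits in the span or within 10 kb) against the density of peaks in the 1 Mb on either side (horizontal axis, peaks per Mb), 1 point per gene, for the normal (left) and deficient (right) library. Myh6 has 6 peaks at a flank density of 28 and Flnc 6 at 27, while Ttn, with 2.50 and 9, has none.

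Other sarcomere genes were set beside the members. Of 27 other genes of striated muscle, heart included, 19 (70.4%) had a normal and 26 (96.3%) a deficient peak, where the rates of their span classes would give 15.1 and 17.7. Mylk3, the cardiac myosin light chain kinase, was the 1 without a deficient peak. When only the 23456 deficient peaks of highest rank were kept, to equal the normal list, 18 of the 27 and 23 of the 39 members had one, beside 47.1% of protein-coding genes. At pileups of at least 4.15 times the background it was 12 and 15, beside 29.3%. These 2 shares are over genes of all spans and are not matched on length. The median span was 48.2 kb for the 27, 26.1 kb for the members and 17.1 kb for protein-coding genes. Of 19 isoforms of skeletal muscle, 10 (52.6%) had a normal and 10 a deficient peak, where class rates would give 9.33 and 11.2, and 8 had both. The deficient count fell to 6 with lists of equal length. Neb, the long nebulin of skeletal muscle and a relative of Nebl, had none in either.

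Promoters of the members were searched for motifs of VDR and of muscle factors. The search took the 250 bases before each start, on both strands, with 5 motifs. The half-site AGGTCA was found in 5 of 44 member promoters (11.4%, beside 14.0% of all listed promoters) and GGTTCA in 1 (2.27%, beside 8.85%). The paired DR3 vitamin D response element was found in none, beside 0.222% of all. The CArG box of serum response factor was found in 8 (18.2%, beside 1.47%), at Acta1, Actc1, Ldb3, Myl3, Myl7, Myom1 and Nebl. The MEF2 site was found in 4 (9.09%, beside 0.508%), at Mybpc3, Myoz2, Ttn and Xirp2. Some genes have more than 1 listed promoter, and close starts share bases. The box of Nebl lies in another of its listed promoters (chr2:17462857-17463106) than the one shown above. A match describes letters and not binding.

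The promoters of Acta1 and Myl7 are shown because each carries a CArG box, in capitals, and has a deficient summit within 1 kb of its start and none of the normal diet. The window of Acta1 is chr8:123894776-123895025 and that of Myl7 chr11:5898783-5899032, both on the minus strand.
Acta1: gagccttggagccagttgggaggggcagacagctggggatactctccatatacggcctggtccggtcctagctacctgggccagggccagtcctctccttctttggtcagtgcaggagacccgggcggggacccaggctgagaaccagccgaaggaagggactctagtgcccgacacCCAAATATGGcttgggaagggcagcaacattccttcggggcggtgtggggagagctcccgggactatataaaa
Myl7: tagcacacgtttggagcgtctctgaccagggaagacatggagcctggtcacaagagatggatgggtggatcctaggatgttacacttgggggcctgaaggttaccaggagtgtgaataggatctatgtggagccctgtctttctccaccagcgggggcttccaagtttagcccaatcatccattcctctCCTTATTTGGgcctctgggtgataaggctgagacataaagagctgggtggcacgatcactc
The peaks lie outside these windows, 656 bp before the start of Acta1 and 854 bp after that of Myl7, so the boxes are not under a called peak.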

How the data were processed

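The authors deposited 1 list of peaks per library, in narrowPeak form on mm10 per the file headers. MACS2 and SAMtools are named in the submitters' processing notes, without versions. The aligner, the caller's threshold and the control are not given in the sources used here. The deposited fold enrichment is a ratio over local background, and the deposited -log10 values are those of the p-value and the q-value. In the normal list end and score are joined by a point in 23455 peaks and were split there. A line that had lost its start was left out (1 peak).

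Summit pileup and background were solved from the deposited fold and -log10 p, which they return to within 0.00029. Genes and promoters came from RefSeq tables of GRCm38.p6. Peaks overlapping by at least 1 bp count as shared. Intervals are exact (95%; Clopper-Pearson for shares, Poisson for pileups) and cover counting error only. The tissue label gave each group. Members and gene lists were chosen with earlier results of these data known. The rule for naming took overlapping pairs, peaks within 1 kb of an end, the 3 members with most peaks and the 3 peaks of highest -log10 q in each list, and members without a peak; other peaks were named after their values were seen. Classes of gene span served as the comparison by length. The counting was tested on simulated peaks and was right for 200 of 200 genes. Python 3.11.15, pandas 2.3.3, numpy 2.4.6, scipy 1.17.1 and matplotlib 3.10.9 were used.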

Additional observations from a re-analysis of the deposited data

How the results depend on the processing

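Of 57 recomputed values of 9 results, 34 stayed within 1.5 times of a reported count or inside the interval of a reported share, and 23 did not. Those with a window of 50 kb were 32 genes with a normal peak, 117 normal and 134 deficient peaks. Within spans alone there were 31 normal peaks, 37 deficient peaks and 4 genes with an overlapping pair. A -log10 q of at least 5 left 23 normal and 14 deficient peaks. It left 13 genes with a deficient peak (beside 24.9% of protein-coding genes). A partner was left for 8.70% of normal peaks (beside 18.9% of the list). Near an end, 1 and 2 genes kept a normal and a deficient peak (beside 6.69% and 5.39% of protein-coding genes). An overlapping pair remained at 2 genes. Lists of equal length left 36 deficient peaks and 4 genes with a deficient peak near an end (beside 14.2% of protein-coding genes). A ratio of pileup to background of at least 4.15 left 18 deficient peaks and 15 genes with one (beside 29.3% of protein-coding genes). Near an end, 2 genes kept a deficient peak (beside 6.58%). Peaks at the genome-wide background were 18 normal and 24 deficient, the latter at 16 genes. Within 3 kb of an end, 12 genes had a normal peak, and with summits at most 100 bp apart, 4 genes had a pair. Each of these settings by its construction widens or narrows what is counted. Where a count of genes stands here without a share, the share of protein-coding genes at that setting is not given. No excess or deficit of members can be read from such a count. The settings on pileup to background and on the genome-wide background, equal lengths for overlapping pairs and the counts by role were chosen after seeing the data. No paired analysis was possible because there was 1 library for each diet, and for the same reason none could be left out. Depth differs between the libraries, and pileups of 14 to 45 fragments limit each peak's precision.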
